A study of Mus musculus with 17 samples.

Results

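Ccnl1 and Ccnl2, which encode cyclins L1 and L2, were followed together with the genes of the 4 CLK kinases (Clk1, Clk2, Clk3 and Clk4), of the cyclin-dependent kinase CDK11 (Cdk11b) and of 3 serine/arginine-rich (SR) splicing factors (Srsf5, Srsf6 and Srsf7). These 10 genes, of the 55335 genes in the deposited tables, were chosen by name, and each of them had counts in all 17 libraries. The list was drawn up with results of these same libraries known. The changes of its genes between genotypes or cell types are therefore given below as a description without p-values. In the main comparisons, calls and groups without overlap come with the share of all genes that did the same. Counts of negative or positive changes come with the median of all genes.

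Cyclins L1 and L2 are nuclear proteins that partner CDK11 and are found with splicing factors in nuclear speckles. The CLK kinases phosphorylate SR proteins on their serine/arginine-rich domains, which releases them from speckles and lets them act on pre-mRNA, and SR proteins bind exons and help the spliceosome choose splice sites. Several genes of this circuit are known to control themselves through their own splicing. CLK transcripts can stay in the nucleus with introns still in place until stress or a fall in CLK activity triggers their splicing, and SR protein genes carry poison exons or introns that send their transcripts to decay.

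The libraries were made from skeletal stromal/stem cells (SSCs) and osteoprogenitor cells (OPCs), which were sorted from the collagenase-digested bones of 3 genotypes of mice. WT mice (Cxcr4+/+) carried no mutated allele, +/1013 mice carried 1 and 1013/1013 mice carried 2 copies of the Cxcr4 1013 knock-in allele, a gain-of-function mutation of the chemokine receptor CXCR4 that every cell of the animal carries. Mice of the study were littermate females aged 8 to 12 weeks unless otherwise specified, the labels name no treatment, and each library came from 3000 cells pooled from 3 mice. Each genotype was sequenced in 3 libraries of SSCs and 3 of OPCs, save the 1013/1013 SSCs with 2. The study describes the pools of a group as biological replicates.

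SSC libraries held 44217695 to 50509592 gene counts and OPC libraries 64099849 to 92683497. The lowest count of a member in any library was 451, and levels are given as CPM, that is counts scaled to library size, normalised with edgeR's trimmed mean of M values (normalised CPM). The share of counted reads that fell on no annotated gene was 3.68% to 4.15% in the WT SSC libraries, 1.53% to 1.80% in the +/1013 SSC libraries, and 2.69% and 1.504% in 1013/1013 SSC replicates 1 and 2. It was 1.15% to 2.62% in the OPC libraries. The number of genes with a count was 21449 to 22599 in WT SSC libraries, 17808 to 19227 in +/1013 SSC libraries, 15748 and 19222 in 1013/1013 SSC replicates 1 and 2, and 18723 to 21027 in OPC libraries. The summed level of 11 leukocyte markers was 13829 CPM in WT SSC replicate 3, 18874 CPM in WT OPC replicate 3 and 15385 CPM in 1013/1013 OPC replicate 2, against 34.8 to 1282 CPM in the other 14 libraries. Col1a1, Bglap, Ibsp, Sp7 and Alpl, markers of osteoblast lineage cells, summed to 92831 to 225239 CPM in OPCs and to 2263 to 16578 CPM in SSCs, where the WT libraries held 11538 to 16578 CPM and the mutant libraries 2263 to 4775 CPM. Ly6a, Pdgfra and Cd34 summed to 1814 to 4539 CPM in SSCs and to 105 to 434 CPM in OPCs. The part of these differences in the results below was not tested, and in bulk libraries fewer cells of a type and less RNA per cell cannot be told apart.

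In the GENCODE M21 annotation of GRCm38, 9 of the 10 genes have at least 1 transcript classed as a retained intron, Cdk11b being the exception. The number of such transcripts was 0 to 8 per gene with a median of 3.5, against a median of 1 for the 8195 protein-coding genes expressed in these libraries. Bases that are exonic only through a retained-intron transcript made up a median of 51.8% of a member's annotated exonic length, from 0% for Cdk11b to 63.8% for Clk1, against a median of 9.20% over those protein-coding genes. These bases are not all retained introns. In Clk1, the gene with the highest share, 5190 bases are of this kind, and the introns retained whole hold 1345 bases. Reads that lie on a retained intron count towards the gene when reads are counted over the union of its annotated exons. The levels below can therefore mix spliced and intron-holding RNA. The release and the counting mode used for these files are not given in the sources used here. In each of the 4 CLK genes, introns 3 and 4 of the 12 introns of the coding transcript are annotated as retained. Intron 3 opens with GTGAGT in Clk2 and Clk3 and with GTATGA in Clk1 and Clk4. At the 5′ splice site of intron 4, the exon ends in gat and the intron starts with GTA in each of these genes. The 3 last bases of the exon (lower case) and the 6 first of the intron (capitals) are shown for this reason, with GRCm38 coordinates of the intron:
Clk1 intron 4, chr1:58419734-58420120, minus strand, 387 bases: gatGTATAG
Clk2 intron 4, chr3:89169703-89170048, plus strand, 346 bases: gatGTACAA
Clk3 intron 4, chr9:57758351-57758626, minus strand, 276 bases: gatGTACAG
Clk4 intron 4, chr11:51273169-51273559, plus strand, 391 bases: gatGTATAG
None of these 4 introns opens with GTAAGT or GTGAGT, the commonest starts of mammalian introns, whereas 11 of the other 19 retained introns of the members do. Intron 5 of Ccnl2, its 1 retained intron (chr4:155817988-155820328, plus strand, 2341 bases), is of the latter kind with the site atgGTGAGT. The sequence is a description of the site, and the counts do not separate spliced from retained transcripts.

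**Figure D1:**
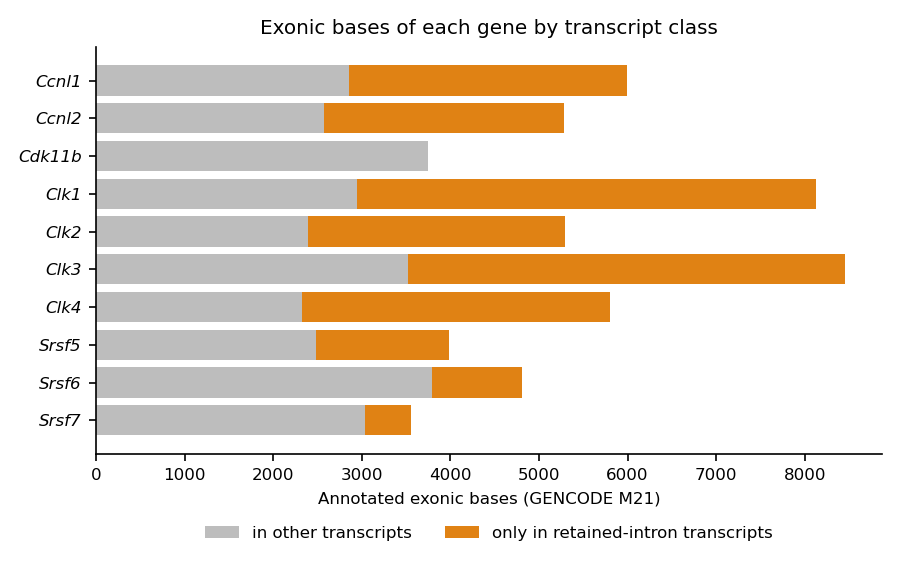
Bars show the annotated exonic bases of each gene in GENCODE M21, with the bases that are exonic only in retained-intron transcripts in orange and all others in grey. The orange part takes 51.3% to 63.8% of the bar in the cyclin L and CLK genes, 14.3% to 37.9% in the SR protein genes and 0% in Cdk11b.

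The promoters of the members held more GC than the median promoter. RefSeq promoter sequences (GRCm38.p6) matched 9 of the 10 genes by symbol, all except Clk1. Over the 300-base windows, which run from 250 bases before to 50 bases after the start, GC content had a median of 65.3% in the members and of 52.7% in all 32851 promoters, and the number of CpG dinucleotides a median of 33 against 7. The GC box (GGGCGG, either strand) was found in 9 of 9 members and in 35.7% of all promoters. The 5-base core of the cAMP response element (TGACG, either strand), which lies inside the full element TGACGTCA, was found in 8 of 9 members, Srsf7 being without it, and in 20.8% of all promoters. The full element was found in Ccnl1 and Clk4 and in 1.79% of all promoters. No member window held TATAAA (for the TATA box), TGANTCA (AP-1 site) or GAANNTTC (pair of heat shock elements), with any base at N. Other forms of these sites were not searched. The Srsf7 window holds the TATA box variant TATATAAG, and the Ccnl2 window holds TTCTAGAA, the heat shock pair in the other order. The GC box and the 5-base core both hold a CpG, and no background of expressed genes or of promoters with a like GC content was used. A match says only that these letters are present. The 250 bases upstream of both cyclin L genes are shown because their levels parted in SSCs, with matches to any of the motifs searched (also the CCAAT box, the ETS site CCGGAA and the E-box CACGTG) in capitals:
Ccnl1, chr3:65958250-65958499, minus strand: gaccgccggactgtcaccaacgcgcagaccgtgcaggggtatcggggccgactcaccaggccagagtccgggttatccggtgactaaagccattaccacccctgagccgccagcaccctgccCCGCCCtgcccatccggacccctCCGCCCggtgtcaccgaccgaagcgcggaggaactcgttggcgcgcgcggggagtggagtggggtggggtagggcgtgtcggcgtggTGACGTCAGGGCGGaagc
Ccnl2, chr4:155812239-155812488, plus strand: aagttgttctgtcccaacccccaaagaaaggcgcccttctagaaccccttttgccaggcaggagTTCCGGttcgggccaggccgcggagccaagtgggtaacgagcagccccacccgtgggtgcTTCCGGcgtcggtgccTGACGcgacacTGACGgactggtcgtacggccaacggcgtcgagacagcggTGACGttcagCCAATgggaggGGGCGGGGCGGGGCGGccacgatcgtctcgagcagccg
The Ccnl1 window has the full element next to its start, followed directly by a GC box, and the Ccnl2 window has 3 separate cores and a run of 3 overlapping GC boxes.

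Levels of different genes were compared per kilobase of annotated exon. This length includes the bases that are exonic only in retained-intron transcripts, from 0% for Cdk11b and 14.3% for Srsf7 to 63.8% for Clk1. The order of the genes depends on that choice, and an order without these bases was not computed. In WT SSCs the order of the mean level was Srsf5 (89.6 ± 9.15 normalised CPM per kb, SD, n = 3), Srsf7 (59.2 ± 8.60), Ccnl1 (54.2 ± 29.5), Ccnl2 (37.6 ± 3.21), Srsf6 (30.3 ± 1.75), Clk1 (28.9 ± 7.44), Cdk11b (24.4 ± 7.14), Clk4 (11.3 ± 3.74), Clk3 (9.61 ± 1.33) and Clk2 (9.09 ± 0.54). Neighbours in this order had separate ranges at 3 places, between Srsf5 and Srsf7, between Ccnl2 and Srsf6 and between Cdk11b and Clk4, and overlapped elsewhere. In WT OPCs, Srsf7 (26.3 ± 3.56, SD, n = 3) and Srsf6 (24.2 ± 3.75) led and overlapped each other, 6 genes from Ccnl1 (10.7 ± 6.02) to Ccnl2 (5.15 ± 0.64) followed without a gap between neighbours, and Clk2 (3.26 ± 0.34) and Clk4 (2.99 ± 0.76) were lowest. Srsf5 ranked 1 in SSCs and 4 in OPCs, and Ccnl2 ranked 4 and 8.

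**Figure D2:**
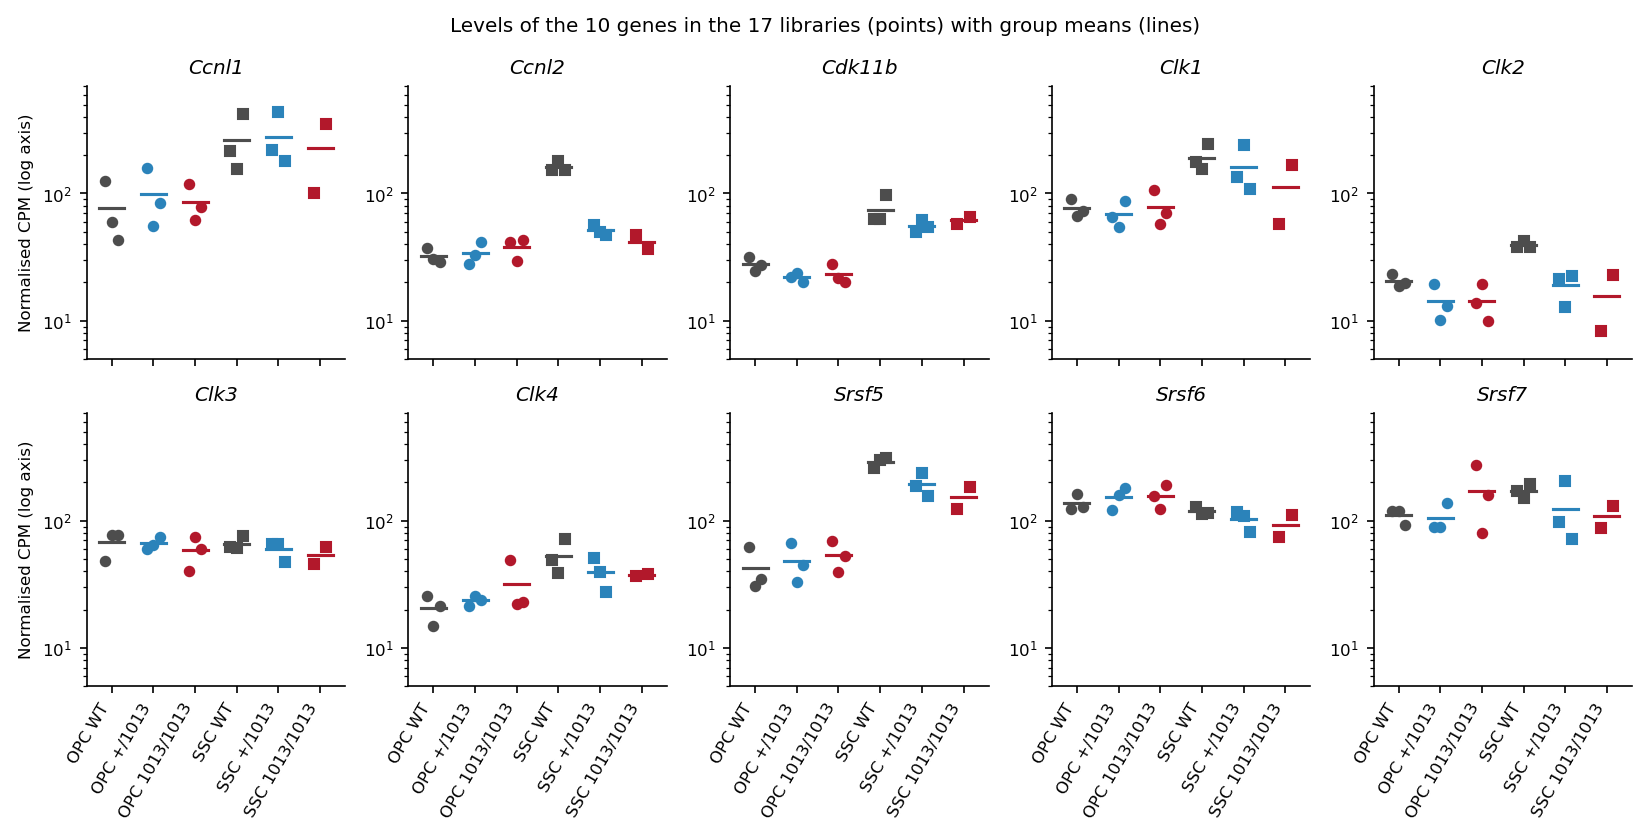
Each point is the level of the gene named above the panel in 1 of the 17 libraries, as CPM normalised over all libraries on a log axis, and each line is the mean of the group. Circles are OPCs, squares SSCs, grey WT, blue +/1013 and red 1013/1013, and the 3 WT SSC values of Ccnl2, Clk2 and Srsf5 lie above those of every other group.

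The effect of the Cxcr4 mutation in SSCs was read first in the cyclins L. Ccnl2 (ENSMUSG00000029068.16, chr4:155812489-155824543, plus strand) had 184.9, 217.4 and 192.7 normalised CPM in the WT libraries, 68.9, 60.5 and 56.9 in the +/1013 libraries and 59.1 and 44.3 in the 1013/1013 libraries. Every WT value lay above every mutant value. On the log2 scale the difference from WT was −1.67 (standard error, SE, 0.18) for +/1013 and −1.94 (SE 0.21) for 1013/1013 SSCs. Ccnl2 fell in +/1013 SSCs, where it was the 1 gene called lower of 17659 genes tested (0.00566%), beside 12 genes called higher (0.068%). A gene was called where edgeR's quasi-likelihood test gave an adjusted p under 0.05 by Benjamini-Hochberg over all genes and the fold was 1.5 or more. Its log2 fold change ran from −1.76 to −1.60 over the alternatives for +/1013 and from −2.16 to −1.81 for 1013/1013. The +/1013 call was made by 4 of the 8 alternatives other than leaving out a library, among them DESeq2's Wald test, and by 0 of the 8 fits that each left out 1 of the SSC libraries. Without WT replicate 3, the WT library with the leukocyte markers, it was −1.70 and −1.96.

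Ccnl1, the paralogue, did not share this pattern. It (ENSMUSG00000027829.15, chr3:65946151-65958249, minus strand) had 259.8, 189.7 and 525.6 normalised CPM in WT, 264.1, 524.3 and 217.6 in +/1013 and 127.2 and 429.4 in 1013/1013 SSCs, so that 1 library of each genotype stood well above its others and the groups overlapped. Its log2 fold change was 0.05 (SE 0.57) in +/1013 and −0.22 (SE 0.64) in 1013/1013 SSCs, and it changed sign between alternatives in both. The log2 ratio of Ccnl2 to Ccnl1 was −0.49, 0.20 and −1.45 in WT, −1.94, −3.11 and −1.94 in +/1013 and −1.11 and −3.28 in 1013/1013 SSCs, and in OPCs it ran from −2.50 to −0.56. Cdk11b, their kinase partner (ENSMUSG00000029062.14, chr4:155624854-155649938, plus strand, 162550 bases from Ccnl2), had 75.9 to 122.6 normalised CPM in WT, 59.98 to 74.6 in +/1013 and 73.0 and 79.6 in 1013/1013 SSCs, with log2 fold changes of −0.46 (SE 0.23) and −0.26 (SE 0.25). Without WT replicate 3, which had the highest Cdk11b level, these became −0.19 and 0.00.

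Among the CLK kinases Clk2 had the most negative fold changes. Clk2 (ENSMUSG00000068917.12, chr3:89164795-89176921, plus strand) had 45.9, 51.4 and 47.1 normalised CPM in WT, 25.9, 15.5 and 27.2 in +/1013 and 10.4 and 27.8 in 1013/1013 SSCs, with every mutant value below every WT value. Its log2 fold change was −1.07 (SE 0.38) in +/1013 and −1.33 (SE 0.44) in 1013/1013 SSCs, and neither was called. Leaving out 1013/1013 replicate 1 or 2, which left 1 library in that group, moved the latter to −0.79 or −2.27. Clk1 (ENSMUSG00000026034.17, chr1:58410189-58424066, minus strand) had 213.5, 188.6 and 303.6 normalised CPM in WT, 161.7, 288.3 and 131.0 in +/1013 and 73.1 and 203.8 in 1013/1013 SSCs, and its log2 fold changes of −0.28 (SE 0.44) and −0.76 (SE 0.50) came with overlapping groups. The 1013/1013 value of Clk1 became −0.21 without replicate 1 and −1.75 without replicate 2, and the +/1013 value ran from −0.70 without +/1013 replicate 2 to −0.06 without WT replicate 3. Clk4 (ENSMUSG00000020385.16, chr11:51261730-51281766, plus strand) had 47.6 to 89.5 normalised CPM in WT, 33.3 to 61.2 in +/1013 and 46.8 and 46.1 in 1013/1013 SSCs, with log2 fold changes of −0.46 (SE 0.30) and −0.49 (SE 0.34). Without WT replicate 3 these became −0.17 and −0.20. Clk3 (ENSMUSG00000032316.8, chr9:57750624-57765860, minus strand) had the smallest fold changes of the family, with 74.1 to 94.2 normalised CPM in WT, 57.5 to 79.7 in +/1013 and 57.1 and 74.9 in 1013/1013 SSCs and log2 fold changes of −0.17 (SE 0.21) and −0.30 (SE 0.23).

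Among the SR proteins Srsf5 (ENSMUSG00000021134.17, chr12:80945504-80950507, plus strand) was below WT in every mutant library. Its level was 317.2, 366.6 and 388.3 normalised CPM in WT, 228.7, 285.1 and 187.4 in +/1013 and 155.9 and 224.8 in 1013/1013 SSCs. The log2 fold change was −0.61 (SE 0.23) in +/1013 and −0.91 (SE 0.26) in 1013/1013 SSCs, and neither was called. Srsf6 (ENSMUSG00000016921.14, chr2:162931528-162937121, plus strand) had 137.7 to 154.5 normalised CPM in WT, 98.6 to 142.8 in +/1013 and 93.8 and 134.9 in 1013/1013 SSCs, with log2 fold changes of −0.23 (SE 0.21) and −0.35 (SE 0.24). Srsf7 (ENSMUSG00000024097.11, chr17:80200080-80207307, minus strand) had 182.1 to 242.7 normalised CPM in WT, 86.1 to 246.7 in +/1013 and 109.9 and 159.2 in 1013/1013 SSCs, with log2 fold changes of −0.48 (SE 0.38) and −0.64 (SE 0.43). The +/1013 SSC replicate 2 stood highest of its genotype for Srsf7 as for Ccnl1 and Clk1.

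Over the 10 genes, 9 had a negative fold change in +/1013 SSCs and 10 in 1013/1013 SSCs. Their median log2 fold change was −0.46 and −0.57, where the median of all 17659 genes was itself −0.11 and −0.23. Of all genes, 36.6% and 40.1% lay below the members' medians. The groups did not overlap and were lower than WT for 4 members in +/1013 (Ccnl2, Cdk11b, Clk2 and Srsf5), against 16.8% of all genes lower and 14.5% higher without overlap, and for 6 members in 1013/1013 SSCs (Ccnl2, Clk2, Clk4, Srsf5, Srsf6 and Srsf7), against 24.4% of all genes lower and 16.7% higher. The test called 1 member in +/1013 and 0 members in 1013/1013 SSCs, where edgeR called 0% of all genes in either direction. In the latter comparison 3224 genes (18.3% of all), 3 of them members, had an unadjusted p under 0.05 in edgeR's test. DESeq2 called 1665 of the 17659 genes, among them Ccnl2, Clk2 and Srsf5. Leaving out 1013/1013 replicate 2, which left 1 library in that group, moved the members' median to −1.13. Leaving out WT replicate 3 moved the members' median to −0.21 in +/1013 and to −0.44 in 1013/1013 SSCs, with Ccnl1 then positive in both and Cdk11b at 0.00 in 1013/1013.

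**Figure D3:**
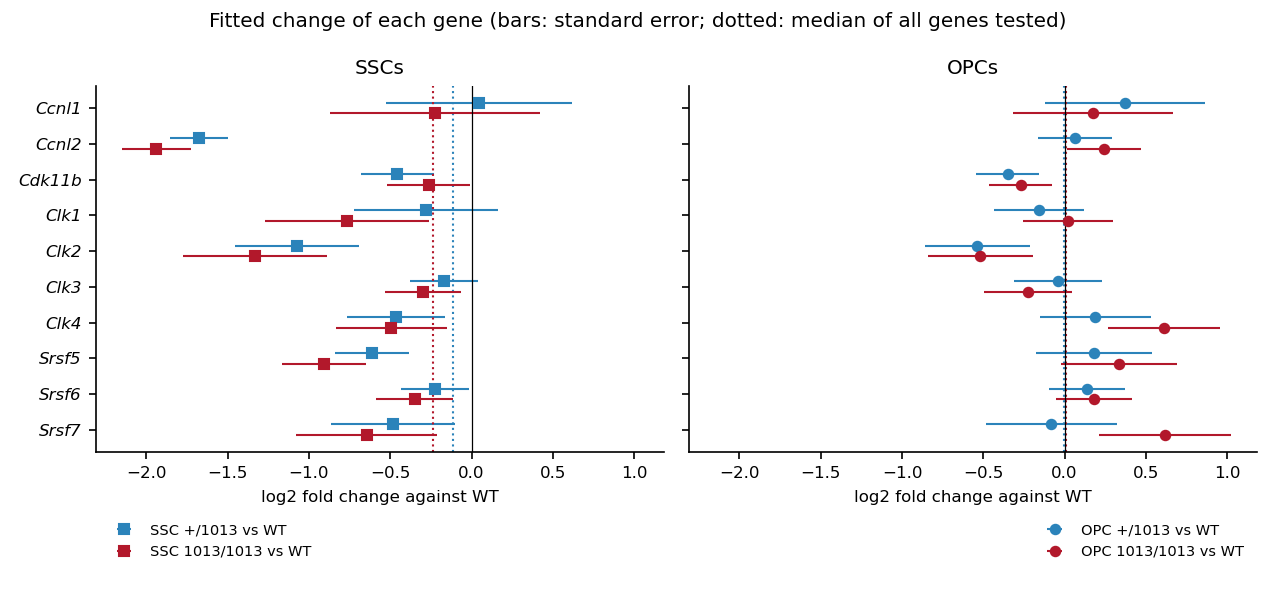
Points are log2 fold changes of the 10 genes against WT in SSCs (squares) and OPCs (circles), blue for +/1013 and red for 1013/1013, with standard errors as bars and the median of all genes tested as dotted lines. Ccnl2 stands apart at −1.67 and −1.94 in SSCs and lies at 0.06 and 0.24 in OPCs.

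Between the mutant genotypes no member was called. From +/1013 to 1013/1013 SSCs the members' median log2 fold change was −0.21 (all genes −0.05), and it ran from −0.48 for Clk1 to 0.19 for Cdk11b. The groups overlapped for all 10 genes, where 7.05% of all genes were higher and 8.83% lower without overlap. Both 1013/1013 libraries also differed from each other, with Ccnl1 at 127.2 and 429.4, Clk1 at 73.1 and 203.8 and Clk2 at 10.4 and 27.8 normalised CPM in replicates 1 and 2. Without replicate 1 the members' median became 0.08 and without replicate 2 it became −0.49. edgeR called 0 of all genes in this comparison, 977 (5.53%) had an unadjusted p under 0.05 in its test and DESeq2 called 162. Among the calls and the unadjusted p-values under 0.05 were 0 members.

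In OPCs none of the 10 genes was called between genotypes. Ccnl2 had 31.0, 25.9 and 24.5 normalised CPM in WT, 23.2, 27.3 and 34.6 in +/1013 and 34.9, 24.7 and 36.7 in 1013/1013 OPCs, with log2 fold changes of 0.06 (SE 0.23) and 0.24 (SE 0.23). Its 9 values lay within 23.2 and 36.7, and the groups overlapped. Srsf5 had 51.3, 25.8 and 29.7 normalised CPM in WT, 55.5, 27.7 and 37.7 in +/1013 and 57.4, 32.8 and 44.5 in 1013/1013 OPCs, with log2 fold changes of 0.18 (SE 0.36) and 0.34 (SE 0.36). Replicate 1 was highest for Srsf5 in each genotype, as it was for Ccnl1, which had 104.8, 131.8 and 98.9 normalised CPM in these 3 libraries and 36.2 to 69.9 in the other 6.

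Clk2 had 15.8 to 19.3 normalised CPM in WT, 8.5 to 16.3 in +/1013 and 8.5 to 16.2 in 1013/1013 OPCs, with log2 fold changes of −0.54 (SE 0.32) and −0.52 (SE 0.32) and overlapping groups. Cdk11b was the 1 member whose groups did not overlap, at 20.97 to 26.3 in WT and 16.9 to 19.7 in +/1013 OPCs (log2 fold change −0.35, SE 0.19), against 2.59% of all 16207 genes tested lower and 2.71% higher without overlap. The highest log2 fold changes in 1013/1013 OPCs, 0.62 (SE 0.41) for Srsf7 and 0.61 (SE 0.34) for Clk4, came with replicate 1, which had 228.6 normalised CPM for Srsf7 and 41.2 for Clk4 where the other 8 OPC libraries had at most 134.9 and 21.6. That library also had the lowest share of type I collagen counts, 16.1%. The members' median log2 fold change was 0.01 in +/1013, with 5 genes higher and 5 lower, and 0.18 in 1013/1013 OPCs, with 7 higher and 3 lower, against −0.00 and 0.01 for all genes. In 1013/1013 OPCs no member lay apart from WT, where 3.91% of all genes were higher and 3.7% lower without overlap. edgeR called 0 members in both comparisons, 0 genes of all in +/1013 and 1 gene (0.00617%, lower) in 1013/1013 OPCs. In its test 331 (2.04%) and 548 (3.38%) genes, 0 of them members, had an unadjusted p under 0.05. DESeq2 called 58 and 42 genes, again without a member.

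Within WT, 5 of these genes were called higher in SSCs than in OPCs. Scaled over all 17 libraries, Srsf5 had 291.5 ± 26.0 normalised CPM (SD, n = 3) in WT SSCs and 42.4 ± 16.8 in WT OPCs, 2.78 (SE 0.34) on the log2 scale, and Ccnl2 161.9 ± 14.7 and 32.3 ± 4.36, 2.32 (SE 0.21) on the log2 scale. Clk4 (1.37, SE 0.34), Cdk11b (1.42, SE 0.21) and Clk1 (1.32, SE 0.40) were also called higher in SSCs, which made 5 of 10 members against 5.55% of all 20238 genes tested, and 0 members were called lower against 5.86%. Clk4 and Clk1 were called in 14 and 7 of the 17 fits that each left out a library, the other 3 in 17 of 17, and without the 3 libraries rich in leukocyte markers Srsf5, Cdk11b and Ccnl2 were called. The groups did not overlap, with SSCs higher, for 8 members against 22.2% of all genes. Clk3 (−0.04, SE 0.25) and Srsf6 (−0.22, SE 0.23) overlapped between the cell types. The members' median was 1.34, and that of all genes 0.17.

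In the mutant genotypes fewer members were called between SSCs and OPCs. Srsf5 and Cdk11b were called higher in +/1013 SSCs than in +/1013 OPCs (log2 fold change 2.00 and 1.33, SEs 0.33 and 0.21, background 6.44%) and in 1013/1013 SSCs (1.53 and 1.41, SEs 0.35 and 0.22, background 6.94%, with 6.12% of all genes called lower). Ccnl2 was not called, with a log2 fold change of 0.60 (SE 0.20) in +/1013 and of 0.13 (SE 0.22) in 1013/1013. In +/1013 the groups did not overlap for 6 members higher in SSCs, against 18.1% of all genes, and for Srsf6 lower in SSCs, against 17%. In 1013/1013 this held for Srsf5 and Cdk11b, against 18.4%, and for Srsf6 lower, against 21.8%. The members' median was 0.67 in +/1013 and 0.19 in 1013/1013, where that of all genes was 0.00 and −0.20. The 1013/1013 call of Srsf5 was lost without 1013/1013 SSC replicate 2 and without the 3 libraries rich in leukocyte markers, and Cdk11b kept its call in every fit.

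**Figure D4:**
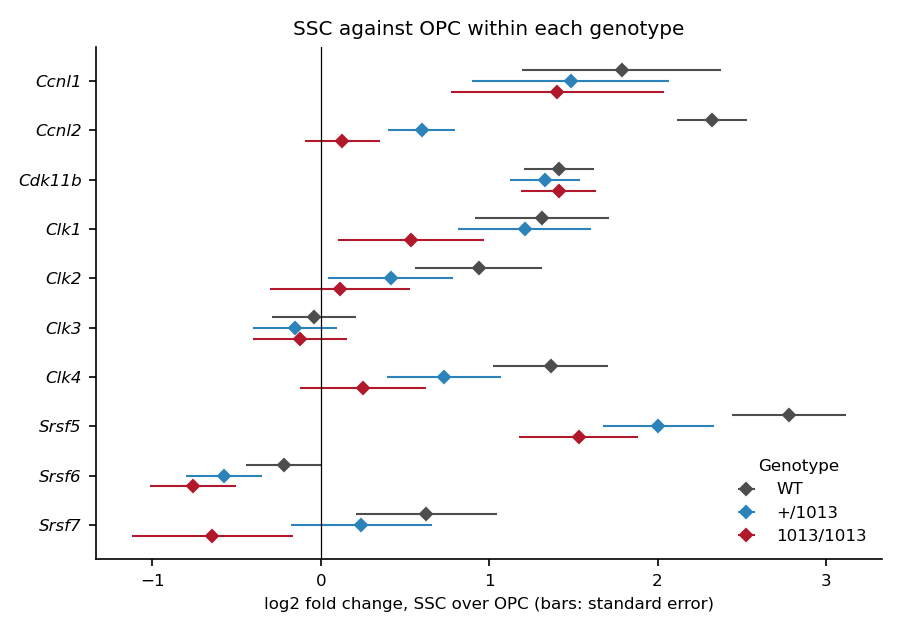
Points are log2 fold changes of SSCs over OPCs within WT (grey), +/1013 (blue) and 1013/1013 (red) for each of the 10 genes, with standard errors as bars. Ccnl2 passes from 2.32 in WT to 0.60 and 0.13 in the mutants, Cdk11b lies at 1.33 to 1.42 in all 3 genotypes, and Clk3 lies near 0 in each.

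The difference of the mutation's effect between SSCs and OPCs was fitted over all 17 libraries. For Ccnl2 it was −1.72 (SE 0.28) for +/1013 and −2.20 (SE 0.31) for 1013/1013, and Ccnl2 was called in both, as 1 of the 3 genes with a negative call for +/1013 (0.0148% of 20238, with 0.0692% positive) and of the 7 for 1013/1013 (0.0346%, with 0.119% positive). The 1013/1013 call was kept in 12 of 17 fits that left out a library and in 6 of 7 other alternatives, and the +/1013 call in 0 of 17 and 1 of 7, DESeq2's test. Without the 3 libraries rich in leukocyte markers the values were −1.69 and −2.31 and neither was called. All 10 members had a negative difference for both genotypes, with medians of −0.37 and −0.80 against −0.14 and −0.39 for all genes. Of all genes, 42.6% and 40.4% lay below the members' medians. Cdk11b (−0.09 and −0.00) had the smallest differences and turned positive under other scalings, and so did Clk3 (−0.12 and −0.09) for 1013/1013. Without WT SSC replicate 3, Ccnl1 and Cdk11b were positive for both genotypes and Clk1 or Clk3 for 1 of them each, which left 7 of 10 negative. After Ccnl2, the most negative were Srsf5 (−0.78, SE 0.45) for +/1013 and Srsf7 (−1.27, SE 0.64) for 1013/1013, and neither was called.

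Other genes of the splicing machinery were followed as lists, drawn up like the members with earlier results known. In SSCs, 16 of 18 genes of SR-related proteins had a negative fold change against WT in both mutant genotypes, with medians of −0.57 and −0.56, and 10 and 13 of them lay below WT without overlap, against 16.8% and 24.4% of all genes. edgeR called 0 of them in either direction. Nktr, which encodes a cyclophilin with an SR domain, had 63.4 ± 3.82 normalised CPM in WT (SD, n = 3), 23.5 ± 9.61 in +/1013 (n = 3) and 15.5 ± 0.51 in 1013/1013 SSCs (n = 2), and Son, a scaffold of nuclear speckles, had 156.6 ± 11.7 in WT and 70.4 ± 6.09 in +/1013. Of 8 other splicing and DYRK kinase genes, 8 and 7 were negative, with medians of −0.85 and −0.70, and 0 were called. Prpf4b, the kinase PRP4, had 55.2 ± 7.22 in WT, 30.7 ± 3.38 in +/1013 and 22.9 ± 3.45 in 1013/1013 SSCs.

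The 29 core spliceosome genes had medians of 0.08 and −0.15, the 21 hnRNP genes 0.10 and 0.08, the 7 other SR protein genes that could be tested −0.11 and −0.12, and the 13 transcription cyclins and CDKs −0.21 and −0.02, with 0 genes called, against −0.11 and −0.23 for all genes. The 16 dissociation genes described below had medians of 0.04 and 0.16, with 0 called. Ccnt2, a cyclin of the elongation kinase P-TEFb, had 44.2 ± 2.41 normalised CPM in WT, 17.03 ± 3.45 in +/1013 and 15.7 ± 5.61 in 1013/1013 SSCs, while Snrpd3, of the Sm ring of snRNPs, had 40.7 ± 0.91 in WT and 78.9 ± 6.46 in +/1013 SSCs. In OPCs 0 genes of any of these lists were called, and the list medians lay between −0.06 and 0.41. Between WT SSCs and WT OPCs, 11 of 18 SR-related genes were called higher in SSCs and 0 lower, with Nktr (1.73, SE 0.38), Pnisr (1.55, SE 0.32) and Tra2b (1.46, SE 0.34) the largest of them, against 5.55% of all genes. Of the other lists, 1 of 7 SR, 1 of 8 kinase, 1 of 13 cyclin and CDK, 5 of 29 core spliceosome, 5 of 21 hnRNP and 2 of 16 dissociation genes were called higher, and 1, 0, 1, 1, 1 and 0 were called lower.

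The levels were set beside the share of reads on no gene and beside 16 genes of the response to tissue dissociation (immediate early and heat shock genes such as Fos, Egr1 and Hsp90aa1). In SSCs the no-gene share fell into separate clusters, with the WT libraries at the top, 1013/1013 replicate 1 between and the other 4 mutant libraries at the bottom, so no correlation over SSCs is given. Within SSCs a high share and the WT genotype cannot be told apart. The 3 WT libraries had both the highest shares and the highest Ccnl2, while 1013/1013 replicate 1, at 2.69%, had a Ccnl2 level of 59.1 within the range of the mutant libraries at 1.504% to 1.80%. In the 9 OPC libraries Pearson's r between the no-gene share and log2 level was −0.04 for Ccnl2, 0.66 for Ccnl1, 0.70 for Srsf5 and −0.69 for Clk3, as a description without a test.

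Ccnl1 followed the summed level of the dissociation genes, a relation chosen after its values were seen and therefore given as a description. Over the 9 OPC libraries Pearson's r of their log2 levels was 0.89 (Spearman's rho 0.88) for Ccnl1, 0.85 (rho 0.85) for Srsf5 and −0.82 (rho −0.80) for Clk3, and 0.85, 0.81 and −0.70 without the 2 libraries farthest from the median sum. Over the 8 SSC libraries r was 0.78 (rho 0.71) for Ccnl1, 0.01 (rho −0.21) for Srsf5 and −0.53 (rho −0.57) for Ccnl2, and 0.68, 0.11 and −0.12 without the 2 farthest. The points of a cell type share genotype groups and the scaling of their library. In OPCs the replicate 1 libraries of WT, +/1013 and 1013/1013 had the highest sums, 17154, 17401 and 22291 normalised CPM, against at most 14723 elsewhere. These libraries also had the highest Ccnl1 and Srsf5 levels of the OPCs. The sum was highest in WT replicate 3, +/1013 replicate 2 and 1013/1013 replicate 2 among SSCs of each genotype, the same libraries that had the highest Ccnl1 and Clk1 levels.

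**Figure D5:**
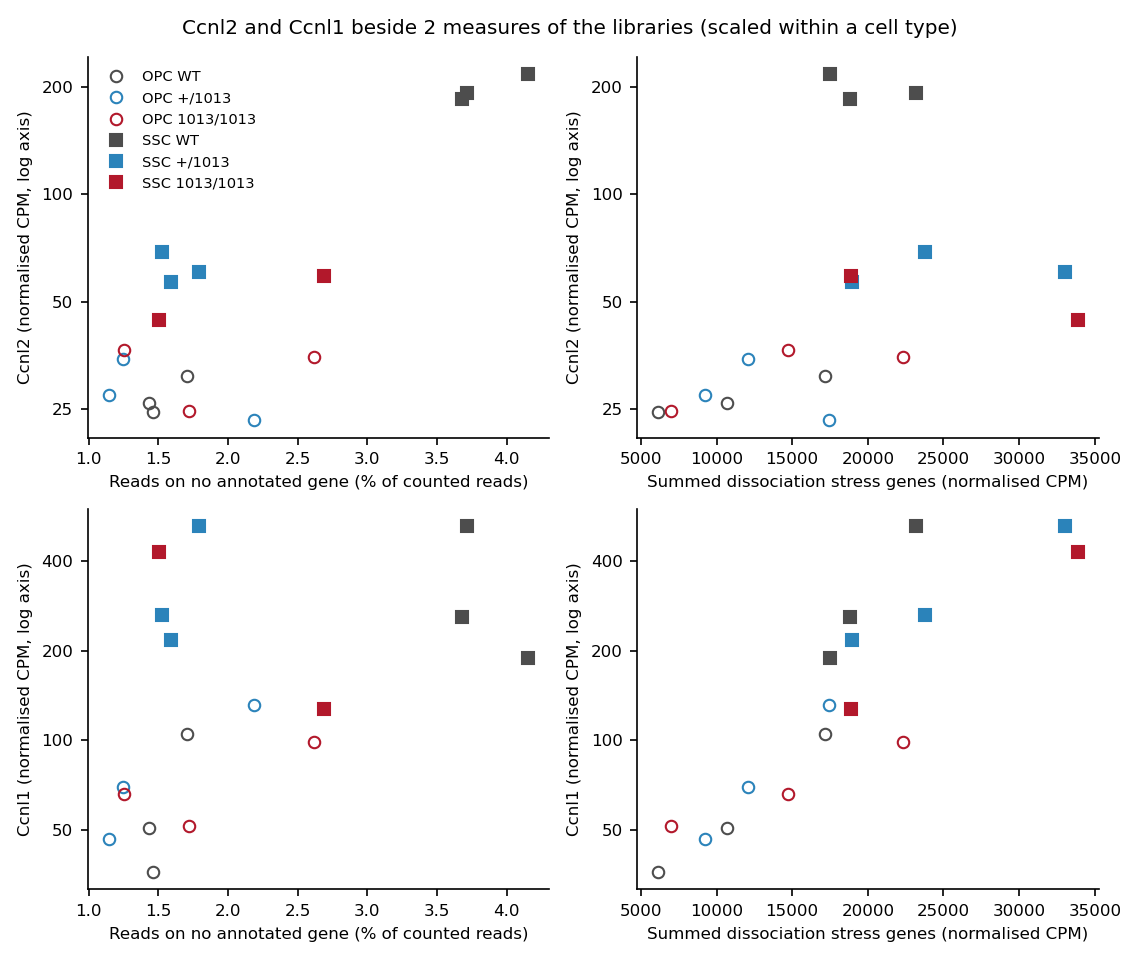
The level of Ccnl2 (top) and Ccnl1 (bottom) in each library, as CPM normalised within a cell type on a log axis, is plotted against the share of reads on no annotated gene in % (left) and against the summed level of 16 dissociation genes in normalised CPM (right). Open circles are OPCs and filled squares SSCs, grey WT, blue +/1013 and red 1013/1013, and the 3 WT SSC libraries stand apart in both left panels by their share of 3.68% to 4.15%, but only for Ccnl2 by their level.

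The members' levels were also compared with each other. Over the 45 pairs of members the median of Pearson's r was 0.61 in the 8 SSC libraries and 0.15 in the 9 OPC libraries, with 16 and 4 pairs above 0.7, as a description of libraries that share their scaling. The libraries of a cell type also share genotype groups, and a median r over pairs of other genes is not given for comparison. Srsf5 was closest to the mean of the other members in SSCs (r = 0.95), and Clk3 had the most negative correlation with it in OPCs (r = −0.87), followed by Clk2 (r = −0.22). Of 8386 other genes that averaged 10 CPM or more, the 10 most like the mean of the members in both cell types were Hsd17b7, Socs5, Araf, Rab10os, Nfat5, Csrnp1, Dusp5, Gna13, Fosb and Nup98, with the smaller of both correlations (9 OPC and 8 SSC libraries) from 0.87 for Hsd17b7 to 0.80 for Nup98.

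Some values are less certain for reasons of annotation. Ccnl1 overlaps the antisense gene Gm37305, Cdk11b overlaps Gm10563, Clk3 overlaps Edc3 and Clk4 overlaps BC049762, each on the opposite strand, and Clk4 also overlaps Gm25082 on its own strand. Strand was not stated, and without strand information reads of such pairs cannot be told apart in the shared part. The other 6 members overlap no annotated gene.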

How the data were processed

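Per the labels and the study's methods, RNA of sorted cell pools was made into cDNA with SMART-Seq v4 (400 to 1000 pg of RNA, 12 PCR cycles) and into paired-end Nextera XT libraries. The authors removed reads under 50 bp, aligned the rest with STAR to mm10 and deposited 1 table of raw HTSeq counts per gene for each library; tool versions, HTSeq settings and the annotation release are not given in the sources used here. Reads assigned to no gene stayed out of library sizes and tests, and their share was 1.15% to 4.15%.

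Genes were named by matching their versioned identifiers to GENCODE M21 (54587 of 55335 matched), which also gave positions, exonic lengths and retained introns, whose splice sites were read from the annotated retained-intron transcripts. Genes were filtered with filterByExpr, scaled with TMM and tested with edgeR's quasi-likelihood test (edgeR 4.0.16, limma 3.58.1, R 4.3.3) in 8 SSC libraries, in 9 OPC libraries, and in all 17 for contrasts of both cell types. Calls needed 1.5-fold and, by Benjamini-Hochberg over all genes tested, an adjusted p under 0.05. DESeq2 1.42.0, RLE and upper-quartile scaling, no filter, a replicate block, edgeR's newer fit, 1 fit of all libraries and leaving out each library were the alternatives, and leaving out the 3 libraries rich in leukocyte markers was added after seeing the data. The members and all lists were chosen with earlier results of these data known. List genes were named as the 3 largest changes among those called or, where none was, among those without overlap.

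A count of 0 allows up to 0.0324 to 0.0679 CPM, and every member lay far above this. Counts are reads without molecular identifiers, so depth covers counting error alone.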

Additional observations from a re-analysis of the deposited data

Results flagged for a closer look

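Ccnl2 stood out because the fitted effect of the mutation in SSCs minus that in OPCs was −1.72 for +/1013 and −2.20 for 1013/1013 on the log2 scale, and both were called by edgeR's quasi-likelihood test over 20238 genes. The gene was chosen with results of these libraries known, so the values are a description. The +/1013 call was made in 0 of 17 fits that left out a library and in 1 of 7 other alternatives, and the 1013/1013 call in 12 of 17 and 6 of 7.

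Clk4 stood out because every mutant library lay below the WT mean in SSCs and above it in OPCs. The mean log2 difference from WT was −0.46 in SSCs and 0.22 in OPCs for +/1013, and −0.44 in SSCs and 0.54 in OPCs for 1013/1013. The fitted difference between the cell types was −0.63 (SE 0.48) for +/1013 and −1.12 (SE 0.51) for 1013/1013, and neither was called. Single libraries overlapped with WT in OPCs of both mutant genotypes and in +/1013 SSCs. Without the 3 libraries rich in leukocyte markers, the fitted log2 fold changes in SSCs were −0.17 for +/1013 and −0.20 for 1013/1013. In OPCs they were then 0.22 and 0.84. The share of all genes with this pattern is not given.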

How the results depend on the processing

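Ccnl2 kept its direction in SSCs under every alternative, while its calls did not, and 0 called values reversed. Of the alternatives' values, 9 of the members' medians moved beyond the spread and 193 did not, and the count of members called moved in 50 and held in 152. DESeq2 called 1302 genes in +/1013 and 1665 in 1013/1013 SSCs against WT (3 members in the latter), 162 between the mutant SSCs (1 member without overlap), 58 and 42 in OPCs, 3833, 4275 and 4736 between SSCs and OPCs of WT, +/1013 and 1013/1013 (5 members in +/1013), and 432 and 1150 for the differences of effect. With RLE scaling and without a filter, 0 genes and 0 members were called in +/1013 SSCs and for the +/1013 difference, with 5 genes left for the 1013/1013 difference without a filter and 1 member without overlap between the mutant SSCs under RLE. Upper-quartile scaling called 33 genes in +/1013 SSCs and 0 for the +/1013 difference, members included, with 1 member without overlap in 1013/1013 OPCs. edgeR's newer fit called 0 genes, members included, for that difference. In 1 fit of all 17 libraries, 145 and 212 genes (1 member) were called in +/1013 and 1013/1013 SSCs, 2 between the mutant SSCs (1 member without overlap) and 1 and 2 in OPCs. CPM without TMM factors left 0 members without overlap in +/1013 OPCs and 1 between the mutant SSCs. The shares of all genes without overlap are not given for these alternatives, and no result about the members is drawn from these counts.

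The labels tie replicate numbers to nothing shared, and the numbers were not taken to pair libraries, since not every same-numbered pair deviated together. In OPCs the correlation of same-numbered deviations ran from −0.54 to 0.53 (median 0.19, 7 of 9 pairs over 0.1), against a median of −0.14 with 5 of 18 over 0.1 for different numbers. In SSCs it ran from −0.26 to 0.22 (median −0.12, 2 of 7 over 0.1). The 2 libraries of 1013/1013 SSCs deviate from their mean as mirror images. Each same-numbered value with them is therefore fixed by a different-numbered value of opposite sign, and does not show whether numbers pair libraries. Same-numbered pairs of WT and +/1013 SSCs had −0.12, −0.26 and −0.19. Within every OPC number Srsf5 was lowest in WT and highest in 1013/1013, and it was not called with the block either. With the replicate block 0 genes and 0 members were called in +/1013 SSCs and for the +/1013 difference, 0 genes in 1013/1013 OPCs and 19 for the 1013/1013 difference.

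Without the 3 libraries rich in leukocyte markers, chosen after seeing the data, 0 members and 0 genes were called in +/1013 SSCs and for both differences, and 0 genes in 1013/1013 OPCs. Then 1020 genes and 3 members were called between WT SSCs and OPCs and 1 member in 1013/1013, with medians of −0.21 in +/1013 SSCs and 1.03 between WT SSCs and OPCs.

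Leaving out 1 library at a time gave these ranges of the members' median, members called, genes called and members without overlap. They were −0.63 to −0.21, 0, 0 and 4 to 6 in +/1013 SSCs, −1.13 to −0.31, 0 to 3, 0 to 2931 and 6 to 10 in 1013/1013 SSCs, and −0.49 to 0.08, 0, 0 to 1812 and 0 to 6 between the mutant SSCs. In OPCs they were −0.12 to 0.06, 0, 0 and 1 to 3 for +/1013 and 0.06 to 0.34, 0, 0 and 0 to 4 for 1013/1013. Between SSCs and OPCs they were 1.10 to 1.49, 3 to 6, 1321 to 2631 and 8 to 10 in WT, 0.51 to 0.79, 2 to 3, 1469 to 2944 and 7 to 8 in +/1013, and −0.02 to 0.48, 2 to 3, 1084 to 4036 and 3 to 6 in 1013/1013. For the differences they were −0.57 to −0.16, 0 and 0 to 13 for +/1013, and −1.54 to −0.27, 0 to 1 and 0 to 1960 for 1013/1013. With 1 library left in 1013/1013 SSCs, that library was assumed to vary like the other groups. The causes of these shifts were not tested.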
